A study of Mus musculus with 16 samples.

Results

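The T cell receptor (TCR) complex and the first steps of its signal were described here by 10 genes: the CD3 chains Cd3e, Cd3d, and Cd3g, the zeta chain Cd247, the coreceptor chains Cd8a, Cd8b1, and Cd4, the kinases Lck and Zap70, and the adaptor Lat. They were chosen by name, with earlier results of these data known, among the 32285 genes of 9 single-cell matrices of CD8+ T cells from mouse kidney allografts and spleens. Each level is in CPM, the unique molecular identifiers (UMIs) of the gene per 1000000 UMIs of the same cells, summed per library. Unless stated otherwise, the cells were those with at least 1 UMI of Cd8a or Cd8b1, which were 56585 of 72639 cells.

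Accepted grafts were DBA/2J kidneys placed in C57BL/6J (B6) recipients, and were taken with the recipient spleens at 1, 3, and 24 weeks, with 3, 5, and 3 libraries per tissue. Rejecting grafts were B6 kidneys in DBA/2J recipients at 1 week, with 2 kidney and 3 spleen libraries, and naive spleen gave 5 libraries. The labels give every sample as C57BL/6J and wild type, from viable CD45+ cells sorted by flow cytometry, and the authors selected the CD8+ T cells by hand from clusters. Graft fate, strain combination, and library preparation cannot be told apart in any comparison of rejection with acceptance. Each time point, and naive spleen, is also a separate set of libraries. Time after transplantation, or transplantation itself, thus cannot be told apart from library preparation in comparisons between these sets. The paper describes collagenase digestion for kidneys, and grinding without it for spleens. Tissue and cell isolation thus cannot be told apart in any comparison of kidney with spleen. A library is a tag in the cell barcodes, of which there were 32. No label ties a tag to an animal, and p-values measure the spread between these libraries.

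As background, the TCR has no signaling part of its own and relies on the CD3 and zeta chains, whose tails carry the tyrosine motifs that Lck phosphorylates. ZAP-70 then docks on these motifs and phosphorylates LAT, the scaffold on which the downstream adaptors assemble. CD8 alpha and beta, or CD4, bind the major histocompatibility complex and bring Lck to the receptor. CD8 is found as an alpha-beta pair on conventional cytotoxic T cells, and as a pair of alpha chains on other cells.

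Before the values, the state of the files bears on several of them. Summed UMIs of the cells used ran from 153266 in rejecting spleen library 2, with 56 cells, to 22782080, and median UMIs per cell from 1764 to 6069. The libraries labelled 24-week kidney and spleen went against their labels in kidney transcripts. A list of 10 kidney parenchyma genes summed to between 0 and 0.361 CPM over all cells of the libraries labelled kidney, and to between 4.48 and 5.37 CPM in those labelled spleen. At 3 weeks the kidney libraries had 7.78 to 12.6 CPM and the spleen libraries 0 to 0.481 CPM. At 1 week they had 1.27 to 5.38 CPM and 0.174 to 0.376 CPM. Rejecting kidneys, at 1.30 to 3.37 CPM, overlapped rejecting spleens, at 0 to 1.51 CPM. Under the 24-week labels, 7 of the 10 genes had the higher mean under spleen and 0 under kidney. All these sums are low. Levels at 24 weeks are therefore given for the libraries labelled kidney or spleen, and no direction between tissues is drawn from them. Of the cell barcodes, 1383 occurred in more than 1 library, and 0 of them had the same UMIs.

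The CD3 genes lie together on chromosome 9 of GRCm38. Cd3e (ENSMUSG00000032093.7) spans chr9:44998740-45009627 on the minus strand, Cd3d (ENSMUSG00000032094.8) chr9:44981786-44987339 on the plus strand, and Cd3g (ENSMUSG00000002033.14) chr9:44969572-44980431 on the minus strand. Cd3d and Cd3g are divergent neighbors, with 1354 bases between them, and 11400 bases separate Cd3d from Cd3e. Cd8a (ENSMUSG00000053977.13) lies at chr6:71373427-71379173 and Cd8b1 (ENSMUSG00000053044.8) at chr6:71322788-71337494, both on the plus strand and 35932 bases apart. The other members stand alone: Cd247 (ENSMUSG00000005763.15) at chr1:165788681-165877277, Zap70 (ENSMUSG00000026117.10) at chr1:36761798-36782818, Lck (ENSMUSG00000000409.14) at chr4:129548344-129573641, Lat (ENSMUSG00000030742.7) at chr7:126363824-126369570, and Cd4 (ENSMUSG00000023274.14) at chr6:124864692-124888221. Cd247 is by far the longest in introns, with 83.3 kb, against 2.1 kb for Cd8a and 22.4 kb for Lck, the next longest.

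The 250 bases before the RefSeq start (GRCm38.p6) are shown for the CD3 genes and Cd8a, because these genes, neighbors in the case of the CD3 chains, moved apart from each other in the comparisons that follow. Capitals mark GGAA or its reverse complement TTCC, the core that ETS factors bind, searched on both strands. The sequences stand 5′ to 3′ on the strand of the gene. Cd3g is chr9:44980432-44980681 (minus), Cd3d chr9:44981536-44981785 (plus), Cd3e chr9:45009612-45009861 (minus), and Cd8a chr6:71373177-71373426 (plus).
Cd3g: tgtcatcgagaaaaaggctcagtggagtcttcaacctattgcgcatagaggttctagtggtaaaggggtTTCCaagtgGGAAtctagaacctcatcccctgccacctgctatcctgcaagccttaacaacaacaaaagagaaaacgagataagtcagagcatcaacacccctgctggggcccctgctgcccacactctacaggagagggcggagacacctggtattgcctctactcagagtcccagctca
Cd3d: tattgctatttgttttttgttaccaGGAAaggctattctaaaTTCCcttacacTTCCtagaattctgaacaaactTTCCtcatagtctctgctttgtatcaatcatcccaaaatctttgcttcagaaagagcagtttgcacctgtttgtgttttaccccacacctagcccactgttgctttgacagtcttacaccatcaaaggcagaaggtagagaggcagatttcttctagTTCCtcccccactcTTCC
Cd3e: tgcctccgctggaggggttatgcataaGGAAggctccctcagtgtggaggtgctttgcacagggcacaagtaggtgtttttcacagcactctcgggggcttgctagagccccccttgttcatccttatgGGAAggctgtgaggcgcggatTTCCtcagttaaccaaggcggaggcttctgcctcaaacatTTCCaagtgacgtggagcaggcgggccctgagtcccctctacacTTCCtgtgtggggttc
Cd8a: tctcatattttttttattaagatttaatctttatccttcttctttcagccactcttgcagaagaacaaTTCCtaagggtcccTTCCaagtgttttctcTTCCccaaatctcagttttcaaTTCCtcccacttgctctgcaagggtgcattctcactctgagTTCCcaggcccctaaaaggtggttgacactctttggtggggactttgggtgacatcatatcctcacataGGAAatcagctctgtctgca
These windows hold 2 such cores for Cd3g, 6 for Cd3d, 5 for Cd3e, and 6 for Cd8a. The core is common, since 93.4% of 32851 promoter windows of this length hold it, with a median of 3 per window. A match is a description of the letters only.

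Coreceptor levels were kept apart from the purity of the files. Cells with a CD8 UMI were 83.5% to 90.1% of the cells in accepted kidneys at 1 week and 96.3% to 97.0% at 3 weeks. In recipient spleens they were 41.9% to 49.2% at 1 week and 44.0% to 51.8% at 3 weeks. The libraries labelled 24-week kidney held 46.2% to 49.2%, and those labelled 24-week spleen 93.4% to 95.3%. Rejecting kidneys held 76.6% and 78.1%, rejecting spleens 100%, and naive spleens 95.0% to 97.6%. Whether cells without a CD8 UMI were removed from the rejecting spleen file, of 726 cells, is not given in the sources used here. Its 100% is therefore not read as purity. Purity thus differed between the tissues at 1 and 3 weeks, and between the libraries with 24-week labels in the other direction. Cells with a Cd4 UMI and no CD8 UMI were 10.0% to 13.5% and 17.4% to 23.0% of the recipient spleen files at 1 and 3 weeks and 18.7% to 22.7% of the libraries labelled 24-week kidney, and at most 3.31% of any other library.

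Since Cd8a and Cd8b1 chose the cells, each was tested in cells chosen by the other. Cd8a encodes the alpha chain, and was read in cells with a Cd8b1 UMI. It was 643, 567, and 437 CPM in accepted kidneys at 1 week, and 1249, 1232, 1339, 1327, and 1271 CPM at 3 weeks. The recipient spleens had 287, 257, and 214 CPM at 1 week, and 334, 343, 357, 386, and 334 CPM at 3 weeks. The 3-week kidneys lay above every other library, and kidney and spleen did not overlap at either time. Rejecting kidneys had 652 and 480 CPM, within or near the range of accepted kidneys at 1 week, and rejecting spleens 211, 249, and 296 CPM. Naive spleens ranged from 358 to 435 CPM.

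From 1 to 3 weeks Cd8a rose in accepted kidneys by 1.23 ± 0.11 on the log2 scale (edgeR adjusted p = 7.46e-08), where 74.9% of all genes passed. It was higher in kidney than in spleen by 1.12 ± 0.15 at 1 week (edgeR adjusted p = 6.88e-05, 48.8% of genes passing) and by 1.87 ± 0.06 at 3 weeks (edgeR adjusted p = 3.18e-16, 65.6% of genes passing). Rejecting and accepted kidneys differed by 0.04 ± 0.21 (edgeR adjusted p = 0.880, 56.8% of genes passing). Over all cells, Cd8a was 171 to 199 CPM in 3-week spleens and 1198 to 1316 CPM in 3-week kidneys, so that the gap between the tissues was wider there than in cells chosen by Cd8b1.

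Cd8b1, the beta chain, varied far less across groups. In cells with a Cd8a UMI it averaged 921 ± 170 CPM (SD, n = 3) in accepted kidneys at 1 week and 1189 ± 84.1 CPM (SD, n = 5) at 3 weeks. It averaged 930 ± 34.2 CPM in 1-week spleens, 940 ± 82.2 CPM in 3-week spleens, and 1080 ± 79.5 CPM in naive spleens. Rejecting kidneys were lowest by the mean, at 664 and 518 CPM. Ranges of neighbors overlapped all along the order of the 9 groups.

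Cd8b1 was higher at 3 weeks than at 1 week in kidney by 0.37 ± 0.11 (edgeR adjusted p = 0.00583, 74.9% of genes passing), which is less than the median of all genes in cells with a CD8 UMI, 0.413. At 1 week kidney and spleen differed by -0.02 ± 0.13 (edgeR adjusted p = 0.935, 45.2% of genes passing), and at 3 weeks by 0.34 ± 0.07 (edgeR adjusted p = 0.000177, 63.9% of genes passing). Rejecting kidneys were lower than accepted kidneys by -0.64 ± 0.21 (edgeR adjusted p = 0.0273, 56.9% of genes passing). That call was lost without accepted kidney library 1 (adjusted p = 0.113) or 2 (0.0956) or rejecting kidney library 3 (0.0831).

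The ratio of Cd8b1 to Cd8a UMIs does not move with the share of cells without either UMI, or with the scaling of whole libraries. This does not hold for the removal of the intron-length shift used below, which differs between genes. The ratio was taken over all cells as a description. It was 1.69 ± 0.06 (SD, n = 3) in accepted kidneys at 1 week and 0.927 ± 0.052 (SD, n = 5) at 3 weeks. Recipient spleens had 3.61 ± 0.39 at 1 week and 2.55 ± 0.16 at 3 weeks, naive spleens 2.74 ± 0.16, and rejecting spleens 2.60 ± 0.74. Rejecting kidneys had 1.05 ± 0.061 (SD, n = 2). The kidneys were thus below the spleens in both models. The libraries labelled 24-week kidney had 2.49 ± 0.098, among the spleens, and those labelled 24-week spleen 1.09 ± 0.033, among the kidneys.

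**Figure D1:**
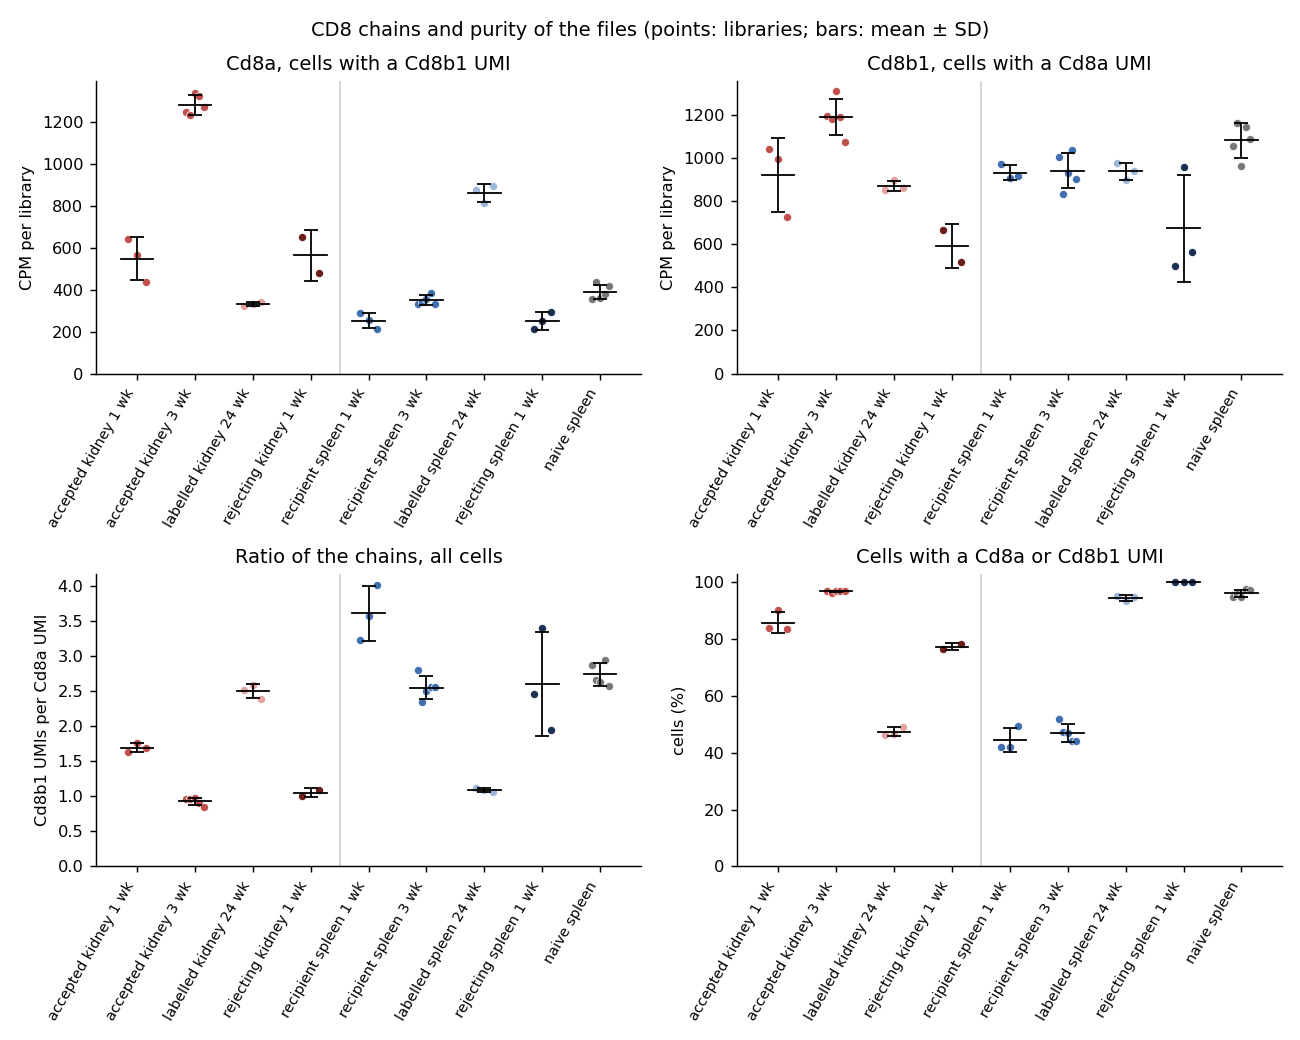
Coreceptor levels and file purity per library in the 9 groups. Panels show Cd8a in cells with a Cd8b1 UMI (CPM), Cd8b1 in cells with a Cd8a UMI (CPM), the Cd8b1-to-Cd8a UMI ratio over all cells, and the percent of cells with a CD8 UMI. Points are libraries, and bars the mean and SD. Cd8a averaged 1284 CPM in 3-week kidneys and 351 CPM in 3-week spleens, whereas Cd8b1 averaged 1189 and 940 CPM.

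Cd3e encodes CD3 epsilon, which pairs with both the delta and the gamma chain. Accepted kidneys had 664, 625, and 480 CPM at 1 week, and 1189, 1539, 1511, 1490, and 1482 CPM at 3 weeks. Recipient spleens had 286, 255, and 252 CPM at 1 week, and 345, 410, 442, 411, and 444 CPM at 3 weeks. Kidneys lay above spleens at both times without overlap, and 3-week kidneys above 1-week kidneys. Rejecting kidneys were the highest of all libraries, at 2651 and 1950 CPM, and rejecting spleens had 1207, 803, and 815 CPM. Naive spleens had 356, 464, 397, 407, and 413 CPM, a range that overlapped that of 3-week recipient spleens.

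From 1 to 3 weeks Cd3e rose in the kidney by 1.29 ± 0.11 on the log2 scale (edgeR adjusted p = 1.11e-07), against a median of 0.413 over all genes. It was higher in kidney than in spleen by 1.16 ± 0.13 at 1 week (edgeR adjusted p = 1.95e-05) and by 1.81 ± 0.08 at 3 weeks (edgeR adjusted p = 1.38e-13). Rejecting exceeded accepted kidneys by 1.96 ± 0.21 (edgeR adjusted p = 8.95e-05, median of all genes 0.676), and rejecting spleens by 1.28 ± 0.25 (edgeR adjusted p = 0.00285). With TMM factors, which set the typical gene to no change, the 1- to 3-week rise was 0.91 (adjusted p = 8.79e-06) and the excess in rejecting kidneys 1.30 (adjusted p = 0.00182). Without cells that had a UMI of the division genes Mki67 or Top2a, the 2 differences were 1.18 and 2.03. These cells were 30.6%, 31.8%, and 49.8% of the 1-week accepted kidney libraries and 26.3% and 71.5% of the rejecting ones.

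Cd3g encodes CD3 gamma, the partner of epsilon in another pair. Accepted kidneys had 1742, 1772, and 1283 CPM at 1 week, and 1939, 1709, 1777, 1866, and 1797 CPM at 3 weeks. Recipient spleens had 791, 795, and 658 CPM at 1 week, and 438, 385, 396, 392, and 365 CPM at 3 weeks. The tissues were well apart at both times, and the spleens of the 2 times did not overlap either. Rejecting kidneys had 1811 and 1058 CPM, above and below the range of accepted kidneys at 1 week, and rejecting spleens 500, 535, and 596 CPM. Naive spleens ranged from 410 to 514 CPM.

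Kidney exceeded spleen in Cd3g by 1.10 ± 0.13 at 1 week (edgeR adjusted p = 4.11e-05) and by 2.20 ± 0.06 at 3 weeks (edgeR adjusted p = 9.74e-17). Between 1 and 3 weeks the kidney changed by 0.18 ± 0.10 (edgeR adjusted p = 0.103), and without 1-week kidney library 2 by 0.27 (adjusted p = 0.0405). The spleen fell by 0.92 ± 0.08 (edgeR adjusted p = 1.18e-07), in the direction opposite to Cd3e, which rose there by 0.63 ± 0.09 (edgeR adjusted p = 1.60e-05). Rejecting and accepted kidneys differed by -0.16 ± 0.25 (edgeR adjusted p = 0.620). The difference was -0.82 with TMM factors (adjusted p = 0.0401), and -0.60 without rejecting kidney library 2 (adjusted p = 0.0228) but 0.18 without library 3, so its direction rests on single libraries. Rejecting kidneys exceeded rejecting spleens by 1.40 ± 0.26 (edgeR adjusted p = 0.00201).

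Cd3d, which encodes CD3 delta, was the steadiest of the 3 CD3 genes. Accepted kidneys had 1315 to 1501 CPM at 1 week and 1284 to 1432 CPM at 3 weeks, and the spleens 1011 to 1064 CPM and 780 to 871 CPM. Rejecting kidneys had 822 and 783 CPM, below every accepted kidney library, and rejecting spleens 516, 476, and 517 CPM, the lowest of all. Naive spleens had 767 to 874 CPM, overlapping the 3-week spleens.

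Kidney exceeded spleen in Cd3d by 0.46 ± 0.09 at 1 week (edgeR adjusted p = 0.00159) and by 0.74 ± 0.06 at 3 weeks (edgeR adjusted p = 4.88e-10). The kidneys of 1 and 3 weeks differed by -0.05 ± 0.08 (edgeR adjusted p = 0.533), and by -0.44 with TMM factors (adjusted p = 0.000186). Rejecting kidneys were lower than accepted ones by -0.84 ± 0.16 (edgeR adjusted p = 0.00208), so that delta and epsilon moved in opposite directions there. The ratio of Cd3e to Cd3d UMIs, which no scaling of whole libraries changes, was 0.410 ± 0.0403 (SD, n = 3) in 1-week accepted kidneys, 1.04 ± 0.0725 (SD, n = 5) at 3 weeks, and 2.86 ± 0.518 (SD, n = 2) in rejecting kidneys. It was 0.255 ± 0.0244 and 0.496 ± 0.0446 in recipient spleens at 1 and 3 weeks, 0.492 ± 0.0644 in naive spleens, and 1.87 ± 0.413 in rejecting spleens. Every library of the DBA/2J recipients was above every library of the B6 recipients in this ratio.

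**Figure D2:**
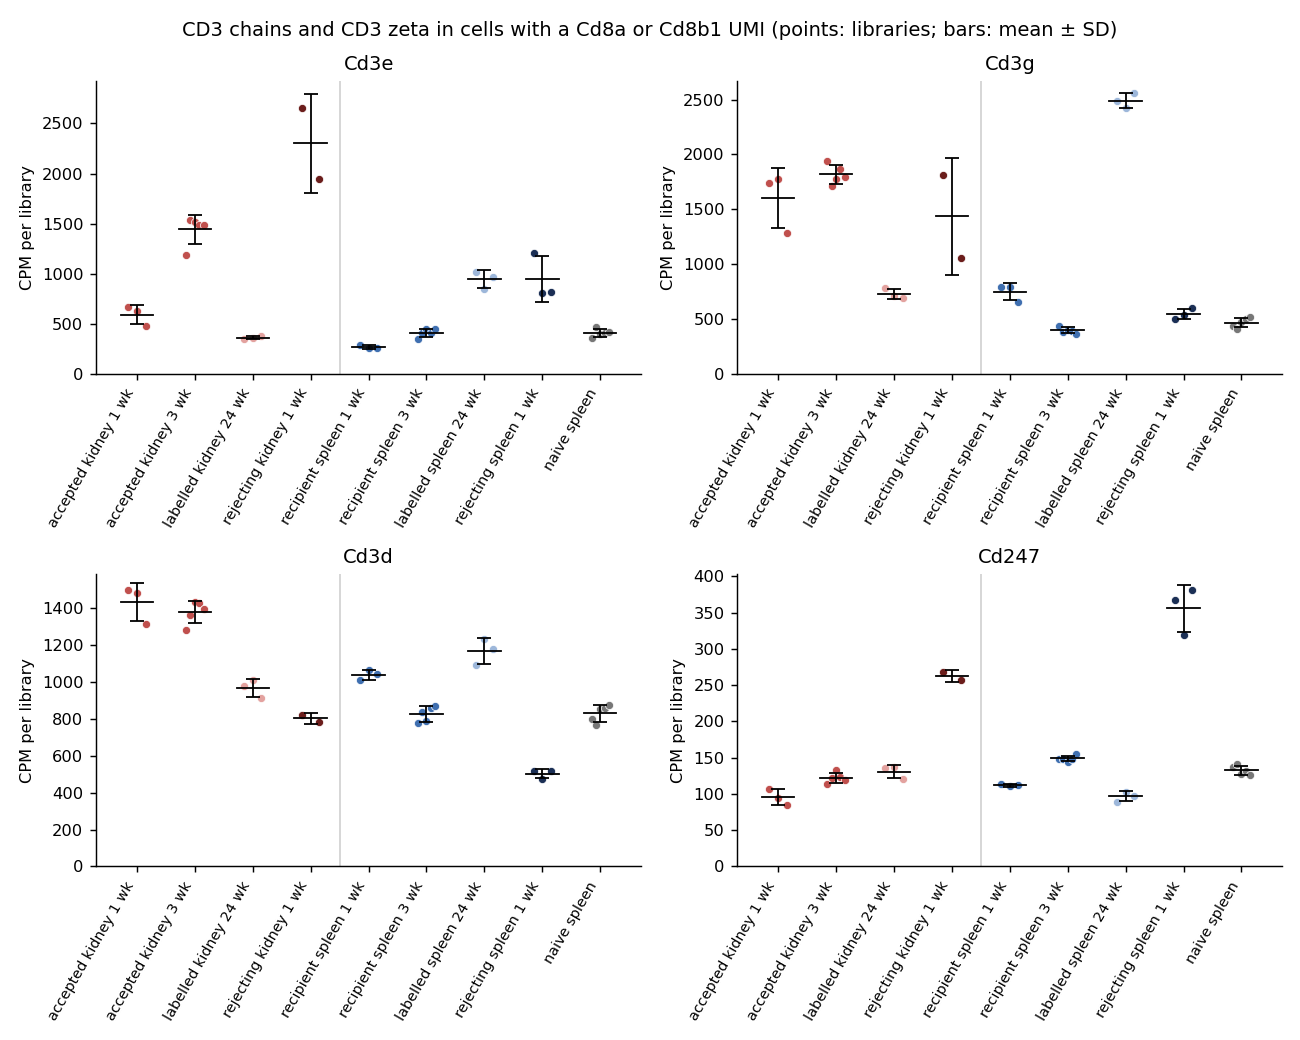
Levels of Cd3e, Cd3g, Cd3d, and Cd247 in cells with a CD8 UMI (CPM, linear axes), with 1 point per library and the mean and SD of each of the 9 groups. Cd3e reached 2651 CPM in rejecting kidney, Cd3g stood at 1818 ± 87.8 CPM in 3-week kidneys against 395 ± 26.6 CPM in 3-week spleens, and Cd247 was highest in rejecting spleens, at 356 ± 32.3 CPM.

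Cd247 encodes the zeta chain, which carries most of the tyrosine motifs of the complex. Accepted kidneys had 107, 94.0, and 85.3 CPM at 1 week, and 114, 122, 132, 123, and 120 CPM at 3 weeks. Recipient spleens had 113, 110, and 112 CPM at 1 week, and 148, 149, 145, 148, and 155 CPM at 3 weeks. Rejecting libraries stood apart, with 268 and 257 CPM in kidney and 368, 320, and 381 CPM in spleen, whereas no other library exceeded 155 CPM. Unlike the CD3 chains, zeta had a lower mean in kidney than in spleen at 1 and 3 weeks and in rejection.

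At 3 weeks Cd247 was lower in kidney than in spleen by -0.28 ± 0.06 (edgeR adjusted p = 0.000407), and at 1 week the difference was -0.23 ± 0.11 (edgeR adjusted p = 0.0985), or -0.34 with TMM factors (adjusted p = 0.0126). The kidney had 0.36 ± 0.09 more at 3 weeks than at 1 week (edgeR adjusted p = 0.00180), less than the median of all genes. With TMM factors that change was -0.03 (adjusted p = 0.756), and with the shift of genes of like intron length removed it was -0.34 (adjusted p = 0.00147), so its direction depends on the scaling. Rejecting kidneys exceeded accepted ones by 1.46 ± 0.16 (edgeR adjusted p = 0.000121) and by 0.79 with TMM factors (adjusted p = 0.00286). With the intron shift removed, the excess was 0.04 (adjusted p = 0.851), since the median gene of like intron length was higher by 1.43 in rejecting kidneys. Rejecting kidney and spleen differed by -0.45 ± 0.24 (edgeR adjusted p = 0.231).

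Lck, the kinase bound to the coreceptor tails, had a narrow range. Its means were 329 ± 19.9 CPM (SD, n = 3) in accepted kidneys at 1 week and 497 ± 18.5 CPM (SD, n = 5) at 3 weeks, where the values ran from 477 to 517 CPM. Recipient spleens had 345 to 362 CPM and 391 to 479 CPM at these times, and naive spleens 509 to 659 CPM, the highest of the 9 groups by the mean. Rejecting kidneys had 407 and 443 CPM and rejecting spleens 272, 326, and 351 CPM. Apart from a gap between the libraries labelled 24-week kidney and the 1-week spleens, neighbors in the order of the groups overlapped.

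Lck rose in accepted kidneys from 1 to 3 weeks by 0.60 ± 0.08 (edgeR adjusted p = 4.13e-06), and by 0.21 with TMM factors (adjusted p = 0.0158). At 1 week kidney and spleen differed by -0.09 ± 0.09 (edgeR adjusted p = 0.432). At 3 weeks kidney was higher by 0.16 ± 0.06 (edgeR adjusted p = 0.0237), a call that was lost without 3-week kidney library 3 (adjusted p = 0.0517) or 4 (0.0562) or spleen library 5 (0.0855) and that turned to -0.10 with TMM factors. Rejecting and accepted kidneys differed by 0.37 ± 0.15 (edgeR adjusted p = 0.0668), or without rejecting kidney library 2 by 0.43 (adjusted p = 0.0446). That difference was -0.30 with TMM factors. Both recipient spleen groups were below naive spleen, by -0.64 ± 0.08 at 1 week (edgeR adjusted p = 4.26e-06) and by -0.30 ± 0.07 at 3 weeks (edgeR adjusted p = 0.00548).

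Zap70, the kinase that docks on the phosphorylated CD3 and zeta tails, went with tissue more than Lck did. Accepted kidneys had 129, 118, and 115 CPM at 1 week, and 186, 201, 213, 206, and 205 CPM at 3 weeks. Recipient spleens had 57.2, 56.1, and 63.1 CPM at 1 week, and 75.0, 84.5, 79.7, 92.6, and 83.6 CPM at 3 weeks. Kidneys and spleens did not overlap at either time. Rejecting kidneys had 178 and 202 CPM, above accepted kidneys at 1 week and overlapping those at 3 weeks, and rejecting spleens 66.7, 45.7, and 90.7 CPM, with 45.7 CPM in the library of 56 cells. Naive spleens had 68.3 to 75.7 CPM.

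Zap70 was higher in kidney than in spleen by 1.03 ± 0.10 at 1 week (edgeR adjusted p = 8.63e-06), by 1.29 ± 0.07 at 3 weeks (edgeR adjusted p = 2.83e-12), and by 1.40 ± 0.29 in rejection (edgeR adjusted p = 0.00389). It rose in accepted kidneys from 1 to 3 weeks by 0.75 ± 0.08 (edgeR adjusted p = 6.40e-07), and by 0.36 with TMM factors (adjusted p = 0.000407). Rejecting exceeded accepted kidneys by 0.66 ± 0.16 (edgeR adjusted p = 0.00654), close to the median of all genes, and with TMM factors the difference was -0.01 (adjusted p = 0.952).

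Lat, the adaptor that ZAP-70 phosphorylates, was nearly level across the accepted and naive groups. Means lay between 217 ± 17.7 CPM in the libraries labelled 24-week kidney and 265 ± 16.2 CPM (SD, n = 5) in 3-week kidneys, and the range of each group overlapped that of the next in the order. Rejecting kidneys had 180 and 204 CPM and rejecting spleens 166, 202, and 171 CPM, the lowest 2 groups. The kidneys of 1 and 3 weeks differed by 0.00 ± 0.08 (edgeR adjusted p = 0.981), and by -0.39 with TMM factors (adjusted p = 0.000395).

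At 1 week Lat was higher in kidney than in spleen by 0.28 ± 0.09 (edgeR adjusted p = 0.0220). That call was lost without kidney library 1 (adjusted p = 0.0574) or spleen library 1 (0.0880) or 2 (0.0883), and with TMM factors (0.17, adjusted p = 0.106). At 3 weeks the tissues differed by 0.05 ± 0.07 (edgeR adjusted p = 0.524), and by -0.21 with TMM factors (adjusted p = 0.0241). Rejecting kidneys were lower than accepted ones by -0.46 ± 0.16 (edgeR adjusted p = 0.0315) and by -1.13 with TMM factors. The call was lost without accepted kidney library 1 (adjusted p = 0.0898), 2 (0.0869), or 3 (0.0762) or rejecting kidney library 2 (0.0909).

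**Figure D3:**
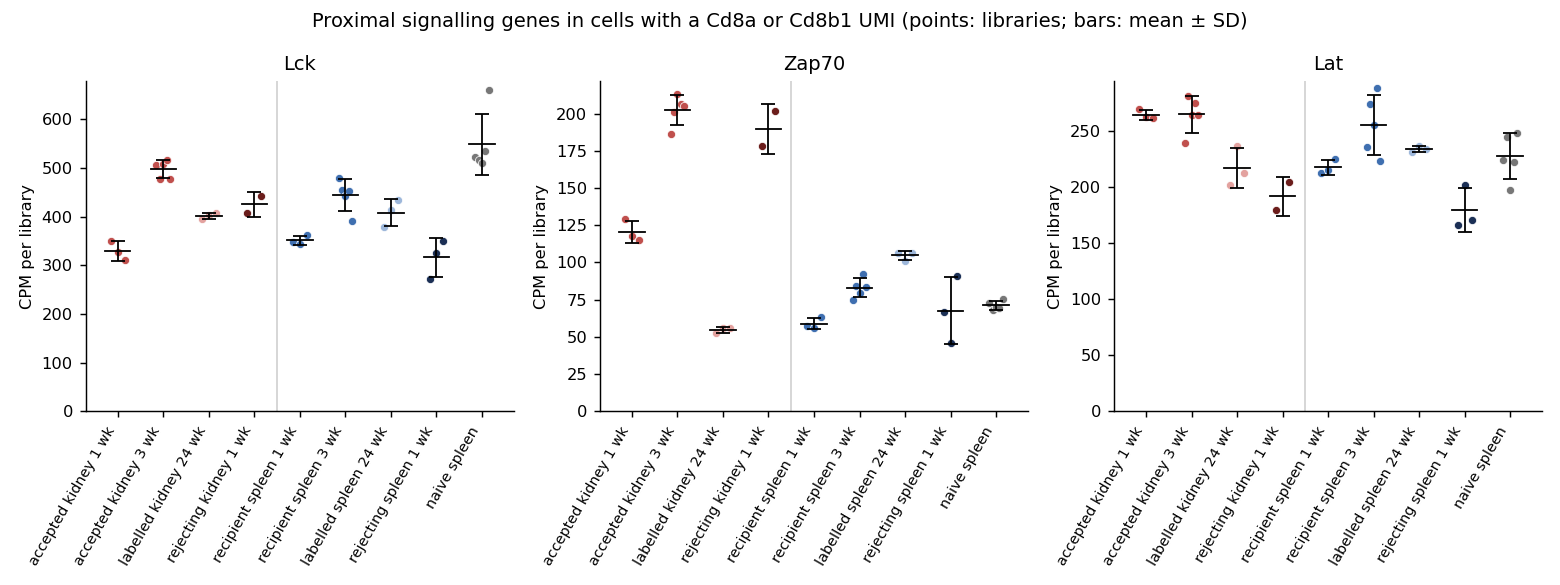
Levels of Lck, Zap70, and Lat in cells with a CD8 UMI (CPM, linear axes), with 1 point per library and the mean and SD of each of the 9 groups. Zap70 averaged 202 ± 10.1 CPM in 3-week kidneys and 83.1 ± 6.49 CPM in 3-week spleens, whereas Lat averaged 265 ± 16.2 and 255 ± 26.6 CPM.

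Cd4 encodes the other coreceptor and served here as a check on the cells chosen, through its own level only. Accepted kidneys had 18.6, 8.71, and 10.0 CPM at 1 week, and 2.64, 5.39, 5.77, 3.66, and 3.96 CPM at 3 weeks. Recipient spleens had 13.8, 7.57, and 9.93 CPM at 1 week, and 9.16, 13.8, 15.6, 9.15, and 16.1 CPM at 3 weeks. These levels are near those of cell types without a T cell receptor, since B cells of naive spleen had 8.20 CPM and myeloid cells of rejecting kidney 11.1 CPM. Cd4 fell in the kidney from 1 to 3 weeks by 1.52 ± 0.26 (edgeR adjusted p = 6.97e-05), and at 3 weeks was lower in kidney than in spleen by -1.57 ± 0.22 (edgeR adjusted p = 4.52e-06). A list of 6 CD4 T cell genes (Cd4, Cd40lg, Foxp3, Ctla4, Izumo1r, and Tnfrsf4) summed to 385 to 447 CPM in 1-week kidneys and 89.5 to 99.8 CPM in 1-week spleens. At 3 weeks the sums were 147 to 167 CPM and 49.6 to 57.7 CPM, opposite in direction to Cd4 alone. In rejecting kidneys the list summed to 253 to 394 CPM with Cd4 at 0. The part of CD4 T cells in the other results was not tested. Over all cells, Cd4 was 56.1 to 61.4 CPM in 1-week spleens and 60.2 to 96.1 CPM in 3-week spleens, against 16.8 to 31.9 CPM and 4.64 to 8.65 CPM in the kidneys, in step with the share of cells that had a Cd4 UMI and no CD8 UMI.

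No Cd4 UMI was counted in either rejecting kidney library, over 4557043 UMIs in 1687 cells and 2184 cells in all. A count of 0 allows up to 3 UMIs over both libraries, or 0.658 CPM in the 1687 cells with a CD8 UMI. Over all 2184 cells it allows a share of cells with a UMI of up to 0.137%. The mean of accepted kidneys at 1 week, 12.5 CPM, was at least 18.9-fold higher than that limit. Cd4 entered the fits of rejecting kidneys only through the other groups, so no test of it there is read. Intervals and limits of this kind cover counting error only. Whether cells with a Cd4 UMI were removed from this file is not given in the sources used here.

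Counted over the 8 members that the choice of cells did not use, the comparisons were set against the share of all genes that passed. From 1 to 3 weeks in accepted kidneys 4 rose and 1 fell, where 74.8% of 11638 genes passed, 6235 up and 2469 down (4078 and 4123 with TMM factors). Kidney against spleen gave 5 higher and 0 lower at 1 week, where 49.4% of genes passed, 3335 up and 2160 down (2818 and 2838 with TMM factors). At 3 weeks it gave 5 higher and 2 lower, where 65.4% passed, 5166 up and 1781 down (3238 and 2989 with TMM factors). The members' median log2 difference was 0.271, 0.372, and 0.452 in these 3 comparisons, against 0.413, 0.0837, and 0.283 over all genes. The members that passed were thus on either side of the background share, and no result about them as a set is read from these counts. These member counts were taken with library totals only, and calls of several members changed with TMM factors, as given above.

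Rejecting against accepted kidneys gave 3 higher (Cd3e, Cd247, and Zap70) and 2 lower (Cd3d and Lat) beside Cd4, at 0 in both rejecting libraries and read only by the limit given above, where 58.1% of genes passed, 5831 up and 1274 down (3294 and 3111 with TMM factors). The median of the 8 members was 0.106, with Cd4 the lowest at its fitted value or at its bound, against 0.676 over all genes. These member counts were also taken with library totals. With TMM factors the calls of Zap70 and Cd3g changed, as given above. Rejecting kidney against rejecting spleen gave 3 higher (Cd3e, Cd3g, and Zap70) and 0 lower of 7 tested, where 17.2% of genes passed, 937 up and 474 down (577 and 620 with TMM factors). With all 9 groups in 1 fit, 7 members and 31.5% of genes passed in that comparison. The difference between these kidney-spleen contrasts and those of acceptance at 1 week was tested as an interaction, in which edgeR passed 0 of the 8 members and 0.546% of all genes, 36 up and 29 down (25 and 40 with TMM factors). At an unadjusted p under 0.05, 2 members (Lck and Cd4) and 1504 genes passed, and DESeq2 passed 1 member, Cd4, which rests on the 0 of the rejecting kidneys. Of the members with a UMI in every group, Lck had the largest estimate, 0.53 (edgeR adjusted p = 0.306).

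The change from 1 to 3 weeks was also compared between accepted kidney and spleen, in an interaction added after the data were seen, where 33.7% of genes passed, 2885 up and 1128 down (1818 and 1848 with TMM factors). The change of Cd3g was higher in kidney than in spleen by 1.10 ± 0.13 (edgeR adjusted p = 1.80e-06), and that of Cd3e by 0.66 ± 0.15 (edgeR adjusted p = 0.00149). With TMM factors these were 0.92 and 0.48 (adjusted p = 0.0212). For Cd4 the difference was -1.80 ± 0.38 (edgeR adjusted p = 0.000969). Cd3d, at 0.28 ± 0.10 (edgeR adjusted p = 0.0307), was no longer called with TMM factors (0.09, adjusted p = 0.531) or when any of 6 of the 16 libraries was left out, among them 1-week kidney library 3 (adjusted p = 0.0898). Zap70 (0.26, adjusted p = 0.0859) and Lck (0.26, adjusted p = 0.0565) were not called, and both passed without 1-week kidney library 1 (adjusted p = 0.0474 and 0.0338).

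In the spleen alone, 5 members rose and 2 fell from 1 to 3 weeks, where 49.3% of genes passed, 3020 up and 1649 down (2052 and 2273 with TMM factors). Those that rose were Cd3e, Zap70 (0.49), Cd247 (0.41), Lck (0.34), and Lat (0.23), and those that fell were Cd3g and Cd3d (-0.33). Lat was lost when any of 5 of the 8 libraries was left out, with adjusted p between 0.0576 and 0.104. Against naive spleen, 1-week recipient spleens had 3 members higher, Cd4 (1.74), Cd3g (0.68), and Cd3d (0.32), and 4 lower, Lck (-0.64), Cd3e (-0.62), Zap70 (-0.27), and Cd247 (-0.25), where 57.6% of genes passed, 2142 up and 3709 down (2806 and 2602 with TMM factors). With TMM factors Zap70 and Cd247 were at -0.11 and -0.09 and no longer called. At 3 weeks only Cd4 (2.02), Lck (-0.30), and Cd3g (-0.24) differed from naive spleen by the test, where 12.3% of genes passed. Cd3g was lost when any of 4 of the 10 libraries was left out, with adjusted p between 0.055 and 0.0758, and Zap70 (0.22, adjusted p = 0.0551) passed without 3-week spleen library 1 (adjusted p = 0.0220). The 6 B cell genes summed to 820 to 1535 CPM in 1-week spleens, 407 to 784 CPM in 3-week spleens, and 263 to 347 CPM in naive spleens, with none at 0. Without cells that had a UMI of Cd4 or of 4 genes of other lineages, which leaves Cd4 itself out, 4 members differed between 1-week and naive spleens, where 57.2% of genes passed. Cd3g (0.83), Lck (-0.55), Cd3e (-0.50), and Cd3d (0.48) passed, and Cd247 (-0.17, adjusted p = 0.0628) and Zap70 (-0.18, adjusted p = 0.0690) did not.

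For the libraries with 24-week labels, those labelled kidney had 348, 354, and 376 CPM of Cd3e, 778, 713, and 689 CPM of Cd3g, and 321, 331, and 344 CPM of Cd8a in cells with a Cd8b1 UMI. Those labelled spleen had 1020, 850, and 967 CPM of Cd3e, 2488, 2419, and 2559 CPM of Cd3g, and 876, 812, and 894 CPM of Cd8a. Every one of these values was higher under the spleen label, the reverse of the order at 1 and 3 weeks. By the test, 1 member was higher under the kidney label, Cd247 (0.44), and 4 were lower, Cd3g (-1.78), Cd3e (-1.39), Zap70 (-0.93), and Cd3d (-0.27), where 53.8% of genes passed, 1443 up and 3848 down (2388 and 2586 with TMM factors, with which Cd3d was at -0.03 and not called). Cd8a was lower by -1.37 ± 0.08 (edgeR adjusted p = 1.63e-10, 52.8% of genes passing) and Cd8b1 differed by -0.11 ± 0.08 (edgeR adjusted p = 0.255, 51.6% of genes passing). Against 3-week kidneys, the libraries labelled 24-week kidney had 1 member higher, Cd4 (0.97), and 6 lower, Cd3e (-2.00), Zap70 (-1.88), Cd3g (-1.32), Cd3d (-0.51), Lck (-0.31), and Lat (-0.29), where 71.1% of genes passed, 1635 up and 6561 down (3368 and 3643 with TMM factors). With TMM factors Lck and Lat turned to 0.17 and 0.19 and Cd3d was at -0.04 and not called.

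**Figure D4:**
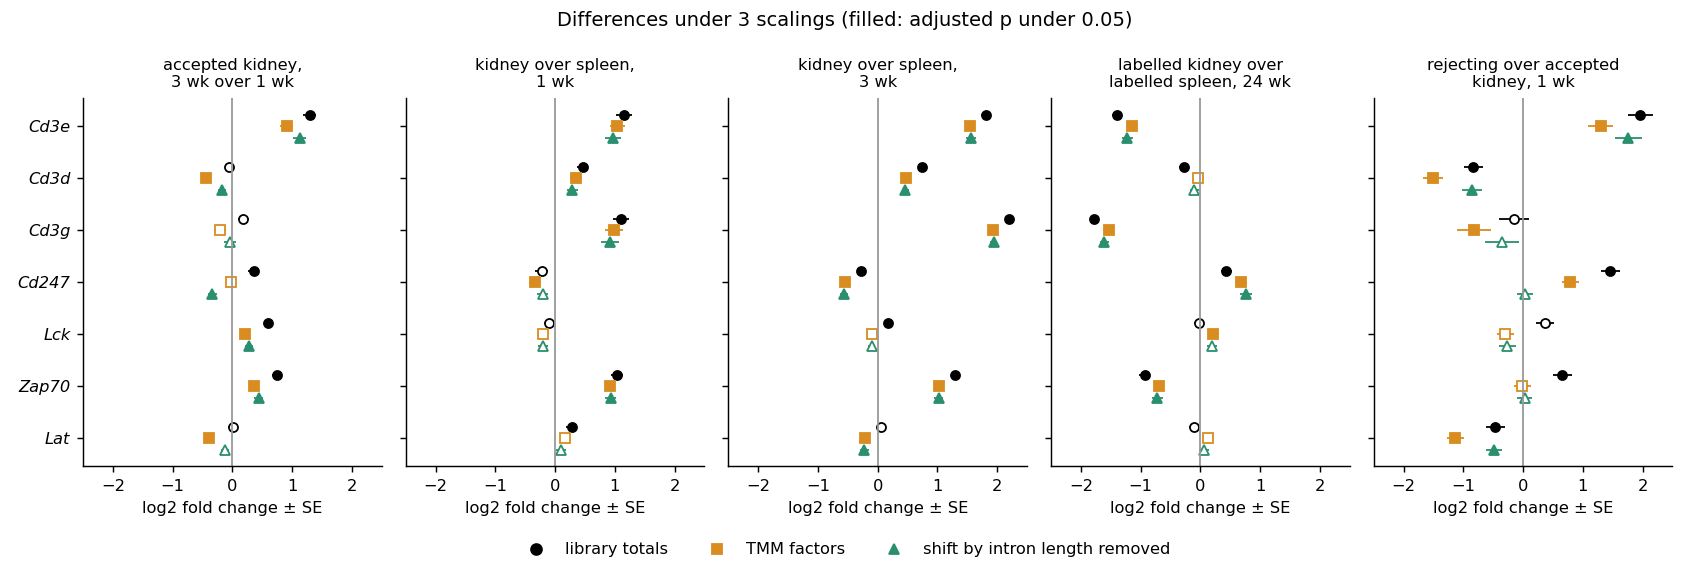
Log2 differences of Cd3e, Cd3d, Cd3g, Cd247, Lck, Zap70, and Lat in 5 comparisons, under plain library totals, TMM factors, and removal of the shift of genes of like intron length. Points are estimates, bars standard errors, and filled points have an adjusted p under 0.05. Cd3e kept its direction under each scaling in every comparison shown, whereas Cd247 from 1 to 3 weeks in the kidney went from 0.36 to -0.03 and -0.34.

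Shares of cells with a UMI were compared after each cell with at least 1000 UMIs was thinned to 1000 UMIs. At 3 weeks 74.8% ± 3.51 (SD, n = 5) of kidney cells and 34.7% ± 3.13 (SD, n = 5) of spleen cells had a Cd3e UMI, and for Cd3g the shares were 81.0% ± 1.51 and 33.6% ± 1.33. Zap70 had 18.0% ± 0.995 against 7.40% ± 1.37, and Cd3d 73.5% ± 1.42 against 55.6% ± 2.44. Cd247 went the other way, at 11.1% ± 0.491 against 14.3% ± 1.09. With Cd4, which was at 0.362% against 1.08%, these 6 of 8 passed an exact two-sided permutation test, each at p = 0.00794, the smallest that 5 against 5 libraries allow, with 0.0317 after Benjamini-Hochberg adjustment over 24 tests. Without thinning 6 of 8 passed as well, with Lat in place of Cd3d. The shares of Lat were then 45.5% in kidney and 63.7% in spleen, those of Cd3d 93.1% and 95.0% (exact permutation p = 0.175), those of Cd3e 93.8% and 81.5%, and those of Cd247 24.6% and 46.5%. Shares without thinning do not allow for depth, and median UMIs per cell were 1969 to 2989 in these kidneys and 3595 to 5322.5 in these spleens. After thinning to 1000 UMIs, Lat was at 23.6% and 24.6% (exact permutation p = 0.484). With 500 UMIs per cell 4 of the 8 passed, without Cd247 (6.22% against 6.18%) and Cd4. These tests were run on the members alone, so their counts have no background, and 65.4% of all genes passed the edgeR test of this comparison.

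From 1 to 3 weeks in the kidney the share with a Cd3e UMI went from 44.5% ± 5.08 (SD, n = 3) to 74.8%, that with Lck from 29.6% ± 1.20 to 38.8% ± 1.19, and that with Zap70 from 10.5% ± 0.987 to 18.0%. Each of these, and the fall of Cd4 from 0.877% to 0.362%, had an exact permutation p = 0.0357, the smallest that 3 against 5 libraries allow, and 0.0857 after adjustment. Without thinning, Cd3e (78.8% to 93.8%) and Cd4 kept that exact permutation p, with 0.0952 after adjustment. Lck (63.1% to 67.7%) and Zap70 (30.7% to 37.7%) then had exact permutation p = 0.464 and 0.143. Without thinning Lat went from 53.0% to 45.5% (exact permutation p = 0.107). After thinning to 1000 UMIs it went from 22.4% to 23.6% (exact permutation p = 0.357). At 1 week 44.5% of kidney cells and 22.7% ± 0.358 of spleen cells had a Cd3e UMI, and exact permutation tests of 3 against 3 libraries cannot go below 0.1. In rejecting kidneys the share of Cd3e was 87.5% and in rejecting spleens 56.7%, with no test. Before thinning, 28160 B cells of naive spleen had a median of 2836 UMIs, and 2283 myeloid cells of rejecting kidney 3293 UMIs. As background, 1.25% of the 28097 B cells with at least 1000 UMIs and 5.69% of the 2283 myeloid cells had a Cd3e UMI after the same thinning. For Cd247 these shares were 0.808% and 1.49%, for Zap70 0.349% and 0.964%, and for Cd4 0.513% and 0.569%, so the shares of Cd4 in the cells studied were near background.

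**Figure D5:**
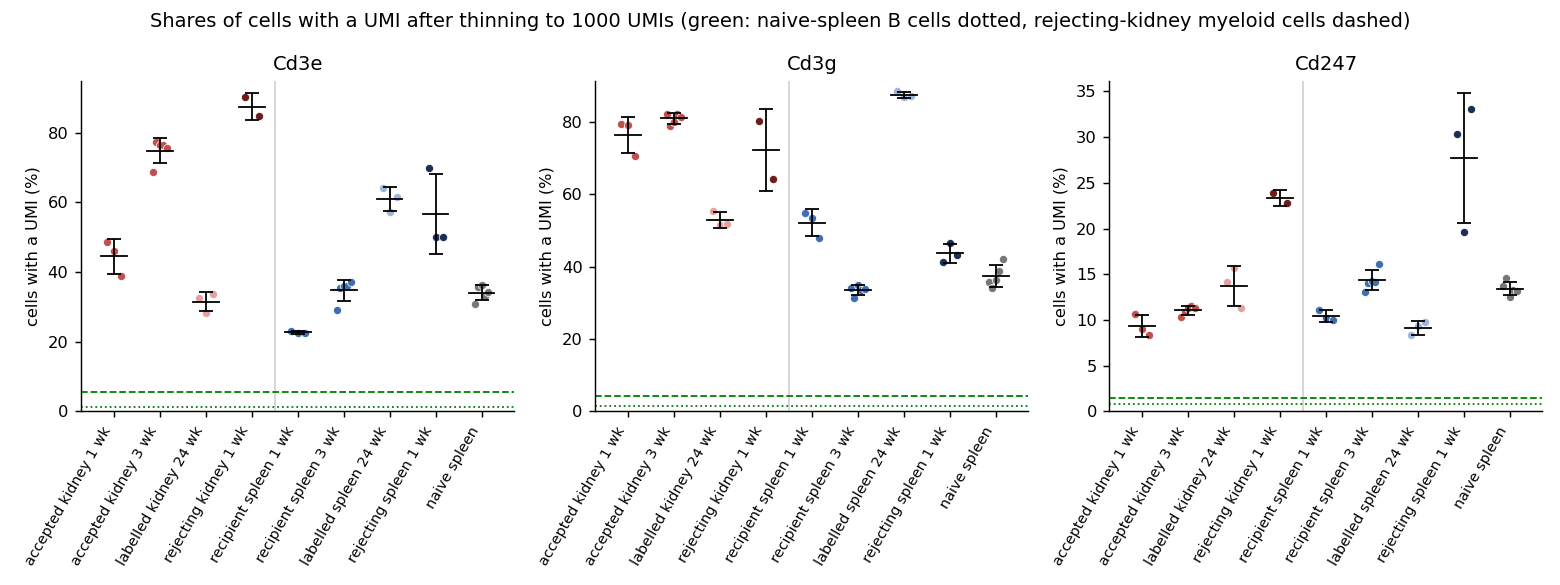
Percent of cells with a UMI of Cd3e, Cd3g, and Cd247 after thinning to 1000 UMIs, with 1 point per library and the mean and SD of each group. Dotted and dashed lines give the shares in B cells of naive spleen and myeloid cells of rejecting kidney. Cd3e was found in 87.5% of rejecting kidney cells and 74.8% of 3-week kidney cells, against 1.25% of B cells.

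Genes with related roles were read in the same fits, in lists fixed by name with earlier results of these data known. Counts and medians of these lists are therefore descriptions. Of the 7 constant regions of the T cell receptor chains, 6 were higher and 1 lower in kidney than in spleen at 3 weeks, where 65.4% of all genes passed, led by the gamma constant regions Tcrg-C2 (4.71), Tcrg-C1 (3.06), and Tcrg-C4 (2.25). At 1 week, where 49.4% of all genes passed, 5 were higher, led by Tcrg-C2 (2.96) and Tcrg-C1 (1.82), and 1, the delta constant region Trdc (-2.35), was lower. The constant regions share sequence among copies, so the split of reads between the gamma regions is uncertain. A list of 5 gamma-delta T cell genes summed to 42.0 to 54.0 CPM in 3-week kidneys, 16.7 to 31.5 CPM in 3-week spleens, 9.79 to 15.3 CPM in 1-week kidneys, and 14.5 to 23.3 CPM in 1-week spleens, with none of the 5 at 0 in these groups. That list holds Trdc, Tcrg-C1, and Tcrg-C4 themselves, so here and below its sum is not independent of their differences. The part of gamma-delta T cells was not tested. From 1 to 3 weeks 5 of 7 rose in the kidney (Tcrg-C4 2.63, Tcrg-C1 1.87, and Tcrg-C2 1.61), where 74.8% of all genes passed, with a list median of 1.27 against 0.413 over all genes.

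Of 30 tested kinases and adaptors of the pathway, 22 rose and 3 fell in the kidney from 1 to 3 weeks, with a median of 0.881, where 74.8% of all genes passed, most of them upward with library totals but not with TMM factors. By log2 difference alone, an order that takes no account of level, the largest rises were those of the kinase Syk (2.40), the adaptor Trat1 (2.32), and Fcer1g (1.84). The last encodes an Fc receptor chain that can stand in for zeta. Fcer1g was at 494 CPM in 3-week kidneys and 8.68 CPM in 3-week spleens, a difference of 5.88. It is also made by myeloid cells, whose 7 markers summed to 207 to 336 CPM in these kidneys and 57.7 to 79.7 CPM in these spleens, with none at 0. In 1-week kidneys they summed to 180 to 275 CPM. A list of 5 NK cell genes summed to 26.6 to 52.1 CPM in 3-week kidneys, 21.7 to 31.2 CPM in 3-week spleens, and 14.6 to 17.1 CPM in 1-week kidneys. The part of either cell type was not tested. Kidney against spleen split the list, with 8 higher and 11 lower at 1 week (Syk -5.35, Fcer1g 3.56, and Trat1 -2.29) and 14 higher and 8 lower at 3 weeks, against 49.4% and 65.4% of all genes passing. At 3 weeks the adaptor Nck2 (-2.57) and Sh2d2a (2.49), which binds Lck, followed Fcer1g. The medians were -0.0438 and 0.138, below those of all genes. Syk and Lyn are also B cell kinases, and the B cell genes summed to 820 to 1535 CPM in 1-week spleens, 407 to 784 CPM in 3-week spleens, and 200 to 295 CPM in the kidneys of both times. Their part in these differences was not tested.

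Of 22 genes that restrain the signal, 18 rose and 0 fell in the kidney from 1 to 3 weeks, led by the kinase Lyn (2.09), Pag1 (1.58), which anchors the inhibitory kinase Csk, and the phosphatase Dusp6 (1.45). The list's median was 0.666, against 0.413 over all genes, of which 74.8% passed. Kidney against spleen gave 9 higher and 5 lower at 1 week, led by the phosphatases Dusp5 (2.58) and Ubash3b (1.48) and by Lyn (-2.47), and 16 higher and 5 lower at 3 weeks, led by Dusp5 (2.14), the lipid kinase Dgka (-1.85), and the adaptor Sla2 (1.83). Of all genes 49.4% and 65.4% passed.

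Of 17 genes induced by TCR signals, 12 were higher and 3 lower in kidney than in spleen at 1 week, where 49.4% of all genes passed, led by the nuclear receptors Nr4a2 (4.05) and Nr4a3 (3.92) and by Spry1 (3.91), an inhibitor of kinase signals. At 3 weeks 12 were higher and 2 lower, where 65.4% of all genes passed, led by Spry1 (6.20), Nr4a2 (4.86), and the costimulatory receptor Tnfrsf9 (4.84). Nr4a2 was at 528 CPM in 3-week kidneys and 17.9 CPM in 3-week spleens. The medians were 1.31 and 1.15, against 0.0837 and 0.283 over all genes. The CD4 T cell genes given above, Tnfrsf4 among them, also summed higher in kidney than in spleen at both times. Cd4 alone, near background, did not follow the sum at 3 weeks. It averaged 12.5 CPM in 1-week kidneys and 10.4 CPM in 1-week spleens, and 4.28 and 12.8 CPM at 3 weeks. Myeloid markers summed to 180 to 275 CPM in 1-week kidneys and 107 to 127 CPM in 1-week spleens. The part of these cells was not tested, and that of collagenase digestion, used for the kidneys only, cannot be told apart from tissue. From 1 to 3 weeks in the kidney, where 74.8% of all genes passed, 5 rose and 5 fell, among them Tnfrsf4 (-3.40), Il2ra (-2.83), which encodes the alpha chain of the IL-2 receptor, and Spry2 (1.39). The CD4 T cell genes, Tnfrsf4 among them, summed to 385 to 447 CPM in 1-week and 147 to 167 CPM in 3-week kidneys. Their part in these changes was not tested.

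In rejecting against accepted kidneys the T cell receptor constant regions gave 2 higher and 2 lower (Tcrg-C4 2.03, Trbc1 -0.85, and Trac 0.82), the kinases and adaptors 20 higher and 4 lower of 31 (Gab2 4.58 and Nck2 3.17 among them), and the restraining genes 13 higher and 2 lower of 22 (Lyn 3.60, Ubash3b 2.48, and Pag1 2.12). Myeloid markers summed to 286 to 312 CPM in rejecting kidneys, with Itgam at 0, against 180 to 275 CPM in accepted ones, and the gamma-delta T cell genes to 14.2 to 36.9 CPM, with Trdv4 at 0, against 9.79 to 15.3 CPM, and the part of either was not tested. The TCR-induced genes gave 6 higher and 4 lower (Nr4a1 -1.96, Tnfrsf4 -1.82, and the transcription factor Irf8 1.47). The median difference of the induced genes was 0.200 and that of the restraining genes 0.800, against 0.676 over all genes, of which 58.1% passed. Of all genes 5831 were higher and 1274 lower with library totals, 3294 and 3111 with TMM factors, and 2340 and 2535 with the intron-length shift removed. These list counts were taken with library totals only. In the interaction of the 2 models with tissue, 0 genes of the first 3 lists and 1 of the TCR-induced genes, Irf8 (1.47, edgeR adjusted p = 0.0448), passed, against 0.546% of all genes. Under the 24-week labels, where 53.8% of all genes passed, most of them lower, the constant regions gave 1 higher and 5 lower (Tcrg-C2 -6.08, Tcrg-C4 -4.78, and Tcrg-C1 -4.21), and the kinases and adaptors 4 and 13 (Fcer1g -3.45, Sh2d2a -2.83, and Nck2 2.17). The restraining genes gave 2 and 15 (Dusp5 -3.92, Dusp2 -1.94, and Ubash3b -1.93), and the induced genes 3 and 13 (Spry1 -6.28, Nr4a2 -5.80, and Nr4a3 -4.68). The gamma-delta T cell genes summed to 11.5 to 28.2 CPM under the kidney label and 98.9 to 113 CPM under the spleen label, with none at 0. The myeloid markers summed to 63.3 to 71.4 CPM, with C1qa at 0, and 157 to 213 CPM, and the part of either list was not tested.

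Across the 32 libraries, the genes whose log2(CPM + 1) went most closely with that of a member were found by Pearson correlation over the 2672 genes that averaged 50 CPM or more. The libraries share tissue, time, and depth within groups, and the intron-length shift was not removed, so these values are descriptions. The part of that shift in them was not tested. For Cd3e they were Trac (0.970), the alpha constant region of the receptor, Ptpn22 (0.969), a phosphatase that restrains Lck, Spag9 (0.961), Kpna1 (0.955), and Rgs3 (0.951). For Cd247 they were Elmo1 (0.974), Dock11 (0.971), Prkcb (0.969), Arhgap15 (0.966), and Ikzf1 (0.963). Lck had weaker companions, Fubp1 (0.897), Notch1 (0.882), Rbm5 (0.864), Snrnp48 (0.850), and Kmt2a (0.841), and Lat the weakest, Rac2 (0.779), Trbc1 (0.766), Cisd2 (0.753), Uqcrh (0.745), and Lamtor2 (0.743).

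Among the 7 members at this level that did not choose the cells, the closest pairs were Cd3e and Zap70 (0.810), Cd3d and Cd3g (0.712), the divergent pair on chromosome 9, and Cd3g and Zap70 (0.684). Their neighbor Cd3e correlated with Cd3d at 0.149 and with Cd3g at 0.646, and Cd3d and Cd247 correlated at -0.817. These correlations were taken on CPM, without removal of the intron-length shift.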

How the data were processed

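CD45+ cells were sorted and sequenced by the authors with 10x 3' chemistry, mapped with Cell Ranger to mm10 (submitters' processing notes, version not given in the sources used here), filtered on UMIs, genes, and mitochondrial content, and annotated by hand. The deposited matrices hold raw UMI counts per gene and cell, and doublets were not called again here. Counts were summed per library tag over cells with a UMI of Cd8a or Cd8b1, and divided by the total for CPM. Each comparison was fitted over all genes of its own groups with edgeR 4.0.16 (R 4.3.3) by the quasi-likelihood test on plain library totals, after filterByExpr, with Benjamini-Hochberg adjustment and a threshold of 0.05. Differences are log2 ± SE. The fitting steps were tested on simulated data. Shares were compared by exact two-sided permutation tests (scipy 1.17.1). The intron-length alternative removed, within each library, the median log2 shift of each of 10 gene groups formed by intron length. Every member was named, with up to 3 genes per list and comparison by the size of the change among those that passed, and 5 most alike genes for 4 members. List genes that this rule names in the spleen and remaining comparisons, and 1 in rejecting against accepted kidneys, are not reported here. Members and lists were chosen with earlier results of these data known. Of the 9 CD8 matrices every column of values was used, and 2 CD45+ matrices gave background cells only.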

Additional observations from a re-analysis of the deposited data

Results flagged for a closer look

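Among groups of 4 or more libraries, 1 library stood far from the rest of its group in 2 of 33 checks, 30 of a member's level and 3 of the Cd8b1-to-Cd8a ratio, where chance flags about 1 in 20. For Cd3e this was 3-week accepted kidney library 1, at 1189 CPM against 1482 to 1539 CPM in the other 4. For Lck it was naive spleen library 5, at 659 CPM against 509 to 536 CPM.

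The change from 1 to 3 weeks differed between accepted kidney and spleen in the edgeR interaction for Cd3g (1.10), Cd3e (0.66), Cd3d (0.28), and Cd4 (-1.80), on the log2 scale. This comparison was added after the data were seen, and Cd3d was not called with TMM factors (0.09, adjusted p = 0.531) or without any of 6 of the 16 libraries.

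The ratio of mean CPM, kidney over spleen, lay on opposite sides of 1 under the 24-week labels and at 3 weeks for 8 members whose kidney and spleen libraries did not overlap in either, and these differences were not tested. Of 9767 genes tested in both comparisons, 41.8% turned in this way. It was 0.292 under the 24-week labels and 4.60 at 3 weeks for Cd3g, 0.380 and 3.52 for Cd3e, and 0.828 and 1.67 for Cd3d. For Cd8a it was 0.379 and 3.64, for Cd8b1 0.869 and 1.33, and for Zap70 0.523 and 2.44. As Cd8a and Cd8b1 chose the cells of these ratios, theirs are no more than descriptions. In cells chosen by the other gene, Cd8a averaged 332 and 861 CPM under the 24-week labels of kidney and spleen and 1284 and 351 CPM at 3 weeks, and Cd8b1 870 and 938 CPM and 1189 and 940 CPM. Cd247 and Cd4 went the other way, at 1.35 and 0.820 and at 1.32 and 0.336. The kidney parenchyma genes were also on the side of the libraries labelled spleen, with 4.48 to 5.37 CPM against 0 to 0.361 CPM.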

How the results depend on the processing

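The scaling changed the most directions. In the change from 1 to 3 weeks in the kidney, Cd247 was at -0.028 with TMM factors, -0.035 with DESeq2, and -0.34 with the intron-length shift removed (an alternative chosen after seeing the data), and Lat at -0.39 with both TMM factors and DESeq2. At 3 weeks kidney against spleen, Lck was at -0.10 with TMM factors, DESeq2, and the intron-length shift removed, and Lat at -0.21, -0.21, and -0.22. Under the 24-week labels Lck was at 0.22 with TMM factors. In the libraries labelled 24-week kidney against 3-week kidney, Lck was at 0.17, 0.17, and 0.15, and Lat at 0.19, 0.19, and 0.040. In 1-week against naive spleen, Cd247 was at 0.14 with the intron-length shift removed. In rejecting against accepted kidneys, Zap70 was at -0.011 with TMM factors and -0.010 with DESeq2. TMM factors and DESeq2 size factors set the typical gene to no change, whereas the median of all genes was shifted with library totals.

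Other directions turned where the gene was called neither as reported nor under the alternative. With TMM factors, DESeq2, and the intron-length shift removed, these were Cd3g in the kidney from 1 to 3 weeks (-0.20, -0.21, and -0.037), Lck in rejecting against accepted kidneys (-0.30, -0.30, and -0.26), Lat in rejecting kidney against spleen (-0.11, -0.098, and -0.14), and Lat under the 24-week labels (0.13, 0.12, and 0.065). Lat in 1-week against naive spleen was at 0.096 with TMM factors and 0.097 with DESeq2, Lat in the kidney from 1 to 3 weeks at -0.12 with the intron-length shift removed, Lck under the 24-week labels at 0.21 with DESeq2 and 0.19 with that shift removed, and Cd3d in 3-week against naive spleen at 0.00017 with DESeq2. Over all cells, Lat was at -0.016 in the kidney from 1 to 3 weeks, -0.081 at 3 weeks kidney against spleen, and 0.030 in 1-week against naive spleen, and Lck at 0.023 under the 24-week labels. After thinning, Lat was at -0.024 at 3 weeks and 0.11 under the 24-week labels, and Lck there at 0.094. Without dividing cells, Cd4 was at -0.27 and Lck at 0.015 in kidney against spleen at 1 week. Without cells with UMIs of other lineages, Lat in 1-week and Cd3d in 3-week against naive spleen were at 0.064 and 0.031, and Cd247 in the added interaction at 0.046. Without cells with a Cd4 UMI, Cd8b1 in crossed cells was at 0.0026 in kidney against spleen at 1 week.

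With 1 library left out, differences not called as reported whose sign turned ranged from -0.021 to 0.037 for Lat in the kidney from 1 to 3 weeks, -0.16 to 0.47 for Cd4 and -0.11 to 0.13 for Cd8b1 in crossed cells in kidney against spleen at 1 week, -0.076 to 0.022 for Lck under the 24-week labels, -0.036 to 0.068 for Cd3e and -0.034 to 0.014 for Cd3d in 3-week against naive spleen, -0.60 to 0.18 for Cd3g and -0.19 to 0.25 for Cd8a in crossed cells in rejecting against accepted kidneys, -0.12 to 0.35 for Cd3e and -0.14 to 0.64 for Cd3g in the interaction of rejection and acceptance, and -0.13 to 0.033 for Cd247 in the added interaction.

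Over all cells, Cd4 at 1 week was lower in kidney than in spleen (-1.39), where the spleen files hold more cells with a Cd4 UMI and no CD8 UMI. The members called numbered 4 in 1-week against naive spleen without cells with UMIs of other lineages (57.2% of genes passing), 5 in 3-week against naive spleen over all cells (22.4%) and 1 after thinning (4.68%), and 7 in rejecting kidney against spleen with all 9 groups in 1 fit (31.5%). In the interaction of rejection and acceptance, 1 was called with DESeq2 (2.01%) and 1 without the filter on low counts (1.02%), both Cd4, and 2 with all 9 groups in 1 fit (4.56%), Cd4 and Lck. Calls of Cd4 in rejecting kidneys rest on its count of 0 there. The causes of these changes were not tested. With 1 library left out, the members called ranged from 5 to 6 in the kidney from 1 to 3 weeks, 4 to 5 and 6 to 7 in kidney against spleen at 1 and 3 weeks, 6 to 7 in the spleen from 1 to 3 weeks, 2 to 4 in 3-week against naive spleen, 5 to 7 in rejecting against accepted kidneys, and 3 to 6 in the added interaction.

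The replicate block of the tag numbers, which no label ties to animals, left the members called at 5, 7, 5, and 3 in kidney against spleen at 1, 3, and 24 weeks and in rejection, and changed none of 31 results. Same-numbered libraries correlated at 0.0380 to 0.221 at 1 week, 0.0927 to 0.514 at 3 weeks, and -0.00433 to 0.282 under the 24-week labels. The numbers were not taken to pair the samples, since the lowest of each set was not above 0.1, and not every library correlated best with its own number. Of 95 results, 68 kept direction and side of the threshold with TMM factors, 67 with DESeq2, 69 with the intron-length shift removed, 76 over all cells, 87 without dividing cells, and 93 without the filter. Rejecting spleen library 2, with 56 cells, limits the precision of that group.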
